A study of Mus musculus with 30 samples.

Results

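Yam1, Malat1, Neat1 and Kcnq1ot1 are long noncoding RNAs, and their rows were taken by symbol from a deposited expression table of 18975 genes in 30 mouse tumors. All 4 symbols were present, and all 4 rows passed the filter on low values. They were chosen by measured values of these same libraries: their read counts, the libraries in which Yam1 had more reads than any other gene, and their values in 1 library of control-treated tumors that stood apart. Abundance, the leading rank of Yam1 and the values in that library are therefore descriptions here and carry no test.

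The tumors were grown under the skin of female C57BL/6 mice from B16F10, a transplantable mouse melanoma cell line. The hosts were heterozygous for ARE-del (HET), an allele of Ifng that lacks an AU-rich element, or wild type (WT, with a genotype label of "ARE-del +/+", read here as wild type). The implanted cells came from 1 line and not from these mice, so the allele sat in the host cells of a tumor. After 7 days of growth the mice were given antibody 2 times a week: 0.25 mg of anti-PD1, which blocks a T cell checkpoint receptor, 0.25 mg of agonist anti-CD40, which activates antigen-presenting cells, both (the combination), or control rat IgG2A (IgG). HET hosts gave 3 anti-PD1, 4 anti-CD40, 4 combination and 4 IgG tumors, and WT hosts gave 4, 3, 3 and 5 tumors in the same order. The age of the mice is not among the labels used here, and nothing in the labels says that replicates were separate animals. A p-value here weighs a difference against the variation among these libraries, which may be technical.

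Each library held 17.6 to 36.0 M reads assigned to genes, with a median of 24.9 M. Melanocyte genes marked the tissue in every library, with Pmel, Dct and Tyrp1 at log2 values of 11.78 or higher throughout. HET IgG replicate 2 stood apart: its normalisation factor was 0.767, against 0.941 to 1.05 in the other libraries, mitochondrial transcripts took 6.53% of its reads, and 1554 genes had no read in it. Keratinocyte markers, which a skin fragment would bring, summed to between 12.7 and 2804 CPM (reads scaled to the effective library size) across libraries, and muscle markers to between 35.3 and 789 CPM. The column names carry an L number from 5 to 8 whose meaning the labels do not give. All 5 WT IgG libraries are L5 and all 4 HET combination libraries are L8, so L number and group cannot be told apart in most comparisons.

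Long noncoding RNAs work as RNA. Malat1 collects in nuclear speckles, where splicing factors are stored, and Neat1 is the scaffold of paraspeckles, nuclear bodies that hold RNA-binding proteins. Kcnq1ot1 is transcribed from the paternal chromosome, antisense to Kcnq1, and silences neighbouring imprinted genes in mouse. Yam1 was described in mouse muscle cells as a transcript driven by the factor YY1 that holds back differentiation.

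The positions below are those of GENCODE vM21, which is on the mm10 build that the submitters' processing notes name. The Yam1 row (ENSMUSG00000098178.1) is a single-exon gene of 1831 bases at chr17:39846958-39848788 on the plus strand, and that release lists the same identifier as Gm42418, a lincRNA. The whole of it lies opposite CT010467.1, a gene annotated as ribosomal RNA on the minus strand (chr17:39846353-39848827), and 923 of its bases lie opposite AY036118. RefSeq places a pseudogene of the small-subunit ribosomal RNA, Rn18s-rs5, over 68.0% of it and gives Gm42418 among the synonyms of that pseudogene. The sequence itself shows the overlap. The start of the Yam1 transcript holds a stretch that is conserved in small-subunit ribosomal RNA, in capitals in the line that follows, read 5′ to 3′ from GENCODE at chr17:39846958-39847017.
Yam1 start: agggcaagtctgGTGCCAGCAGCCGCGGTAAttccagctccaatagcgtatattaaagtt
From that start, 1244 bases (67.9% of the transcript) are identical to the reverse complement of the CT010467.1 transcript. The next 2 lines show where the identity ends (chr17:39848172-39848231, plus strand, shared bases in capitals) and the start of CT010467.1 on the minus strand (chr17:39848172-39848201), which pairs with those capitals base for base.
Yam1 junction: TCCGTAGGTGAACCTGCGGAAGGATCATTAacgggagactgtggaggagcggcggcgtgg
CT010467.1 start: TAATGATCCTTCCGCAGGTTCACCTACGGA
Among 141767 annotated transcripts, 0 others share a run of 25 bases with Yam1 on the same strand and 3 share one on the opposite strand, all from CT010467.1 or AY036118. The conserved stretch reads in the direction of the Yam1 transcript itself, so counting by strand would not keep such reads out of this row. Whether the counting used strand is not stated, and copies of ribosomal RNA genes outside the annotation are possible targets of the same reads. Reads of the Yam1 row and of small-subunit ribosomal RNA can therefore not be told apart, and every Yam1 value below is a value of that row.

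Malat1 (ENSMUSG00000092341.2) spans chr19:5795690-5802672 on the minus strand in 1 exonic block of 6983 bases. Neat1 (ENSMUSG00000092274.2), on the same strand at chr19:5824708-5845478, covers 20771 exonic bases, and 22035 bases separate it from Malat1. The 3′ end of Malat1 is not made by the usual cleavage and polyadenylation: an A-tract in the gene itself pairs with upstream U-rich motifs in a triple helix that protects the RNA. A U-rich motif and the A-tract of 12 bases are shown in capitals (chr19:5795968-5796082, minus strand), because they are the part of the RNA that stands in for a poly(A) tail.
Malat1 3′ end: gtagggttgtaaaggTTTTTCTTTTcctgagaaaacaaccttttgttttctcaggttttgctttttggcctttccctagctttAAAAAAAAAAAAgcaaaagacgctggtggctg
Kcnq1ot1 (ENSMUSG00000101609.1) is annotated as 1 unspliced block of 93092 bases at chr7:143203458-143296549 on the minus strand, inside Kcnq1 on the plus strand. Without strand, reads from introns of Kcnq1 would be counted with it.

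Yam1 was the only one of the 4 among the most abundant RNAs by reads, and Kcnq1ot1 was not abundant. Over the 30 libraries Yam1 had a median of 2140 CPM (range 1168 to 22948) and a median rank of 22 among all genes. Neat1 had a median of 482 CPM (40.3 to 1191) and a median rank of 247, and Malat1 had 266 CPM (103 to 400) and a median rank of 599. Kcnq1ot1 had 12.2 CPM (3.40 to 19.5), a median rank of 9093.5, and between 66 and 554 reads in a library, so the word abundant does not describe it. Per kilobase of exon the order changed. The median was 1169 CPM per kb for Yam1, 38.1 for Malat1, 23.2 for Neat1 and 0.131 for Kcnq1ot1. Neat1 had more reads than Malat1 in 27 of 30 libraries, but more per kb in 7 of 30.

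**Figure D1:**
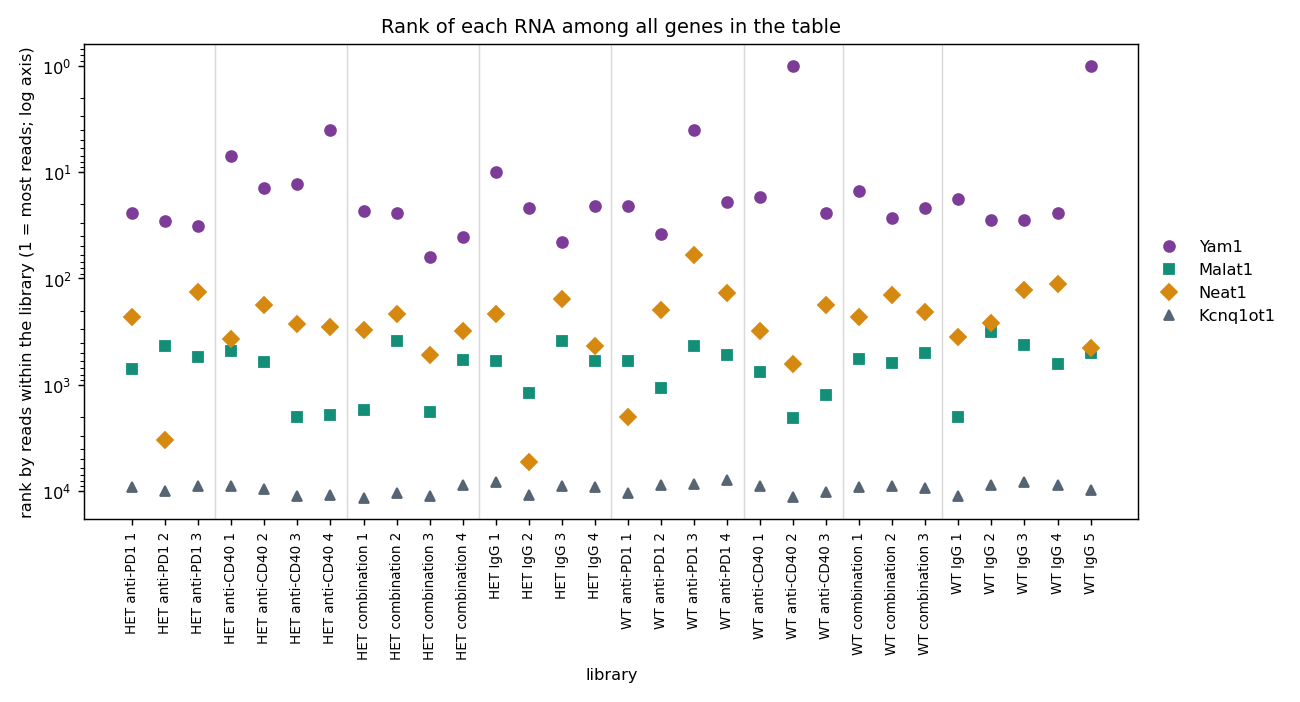
Rank of each RNA by reads within each of the 30 libraries, on a log axis with rank 1 at the top; groups are divided by vertical lines. Yam1 is at rank 1 in WT anti-CD40 replicate 2 and WT IgG replicate 5 and at ranks 4 to 63 elsewhere, while Kcnq1ot1 never rises above rank 7875.

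The 4 RNAs varied more between libraries than most genes. On the log2 scale the SD over the 30 libraries was 1.00 for Yam1, 0.99 for Neat1, 0.77 for Kcnq1ot1 and 0.62 for Malat1, against a median of 0.37 over the 15002 genes tested. Of those genes, 92.9% varied less than Yam1 and 80.3% less than Malat1. Most of that spread lay within groups. The pooled SD within groups was 1.01 for Yam1, 1.06 for Neat1, 0.79 for Kcnq1ot1 and 0.61 for Malat1.

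**Figure D2:**
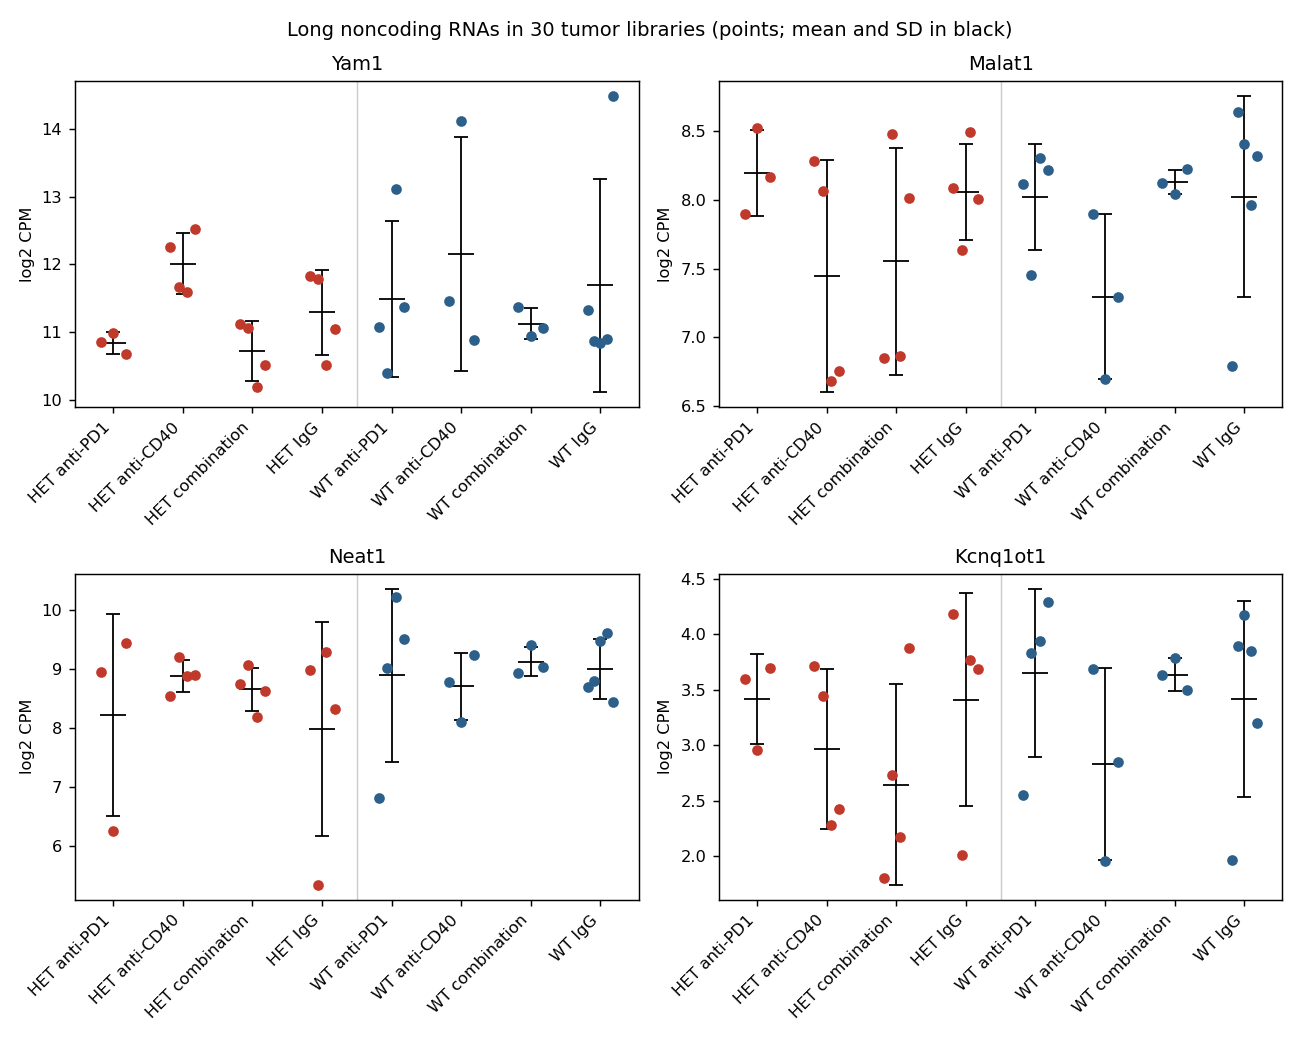
Log2 CPM of each RNA in every library, by group, HET groups on the left (red) and WT groups on the right (blue); black bars give the group mean and SD. Single libraries set the extremes: WT IgG replicate 5 at 14.49 for Yam1 and HET IgG replicate 2 at 5.34 for Neat1.

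Yam1 in HET tumors had 1854, 2037 and 1635 CPM after anti-PD1, 4915, 3264, 3091 and 5865 after anti-CD40, 2222, 2126, 1168 and 1456 after the combination, and 3622, 3528, 1461 and 2108 after IgG. The HET anti-CD40 libraries lay above those of HET anti-PD1 and of the HET combination, and 2 of the 4 HET IgG libraries lay within their range. The share of all genes that do not overlap between those pairs of groups is not given here, so this order is a description. In WT tumors Yam1 had 2150, 1353, 8814 and 2650 CPM after anti-PD1, 2814, 17808 and 1888 after anti-CD40, 2659, 1969 and 2130 after the combination, and 2575, 1876, 1840, 1916 and 22948 after IgG. Of the WT groups, 3 held 1 library far above its mates, and the WT combination did not. The group means ran from WT anti-CD40 (7504 ± 8936 CPM, SD, n = 3) down to the HET combination (1743 ± 513 CPM, SD, n = 4), and in this order each of the 7 pairs of neighbouring groups overlapped.

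In WT anti-CD40 replicate 2, Yam1 took 1.70% of all reads, and in WT IgG replicate 5 it took 2.18%. The next gene was Eef1a1, a translation elongation factor, in WT anti-CD40 replicate 2, where Yam1 had 1.72 times its reads. In WT IgG replicate 5 the next gene was Gpnmb, a melanosome glycoprotein, and the ratio was 1.70. Dct, a pigment enzyme, led 17 of the 30 libraries. Elsewhere Yam1 came closest to the top at rank 4, in HET anti-CD40 replicate 4, between the melanocyte genes Pmel and Gpnmb, and in WT anti-PD1 replicate 3, between mt-Cytb, a mitochondrial transcript, and Pmel. Scd2, a fatty acid desaturase, was most often the gene just above it, in 4 libraries, and Ppia, a peptidyl-prolyl isomerase, most often the gene just below it, in 3 libraries.

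The other 3 RNAs did not go with Yam1 in the libraries that it led. In WT anti-CD40 replicate 2, Malat1 was at 104 CPM against 157 and 238 in the other 2 libraries of its group, Neat1 at 275 against 436 and 605, and Kcnq1ot1 at 3.78 against 7.11 and 12.8. In WT IgG replicate 5, Malat1 (320 CPM) and Kcnq1ot1 (9.10 CPM) lay within the range of their group mates, and Neat1 (348 CPM) lay below its mates at 413 to 780. The libraries also differed in makeup. Keratinocyte markers summed to 2804 CPM in WT anti-CD40 replicate 2, the highest of all libraries, and to 38.6 CPM in WT IgG replicate 5. The part of skin in the Yam1 values was not tested.

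The genes whose log2 values followed Yam1 most closely over the 30 libraries were AY036118 (Pearson r 0.89), Gm15564 (0.88), Lars2 (0.87), n-R5-8s1 (0.87) and Gm24270 (0.87). The same 5 led after each group mean had been subtracted. The symbol AY036118 is also that of the gene opposite Yam1 described above, although the identifier of the row is not in that release. Its values were low, with a median log2 value of -0.76 and 3 to 100 reads in a library. In the annotation, n-R5-8s1 is ribosomal RNA, Gm15564 is antisense RNA, Gm24270 is a microRNA gene and Lars2 encodes the mitochondrial leucyl-tRNA synthetase. Lars2 reached log2 values of 12.38 in WT anti-CD40 replicate 2 and 12.76 in WT IgG replicate 5, against a median of 9.80 over all libraries. Gm15564 reached 8.31 and 8.58 in the same libraries and n-R5-8s1 6.10 and 6.10, against 3.89. Without these 2 libraries the correlation with Yam1 was 0.84 for n-R5-8s1, 0.82 for AY036118, 0.69 for Gm15564, 0.69 for Gm24270 and 0.67 for Lars2. Only 11 of 15001 genes correlated with Yam1 above 0.8. Near-identical copies make the split of reads among ribosomal RNA rows uncertain.

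**Figure D3:**
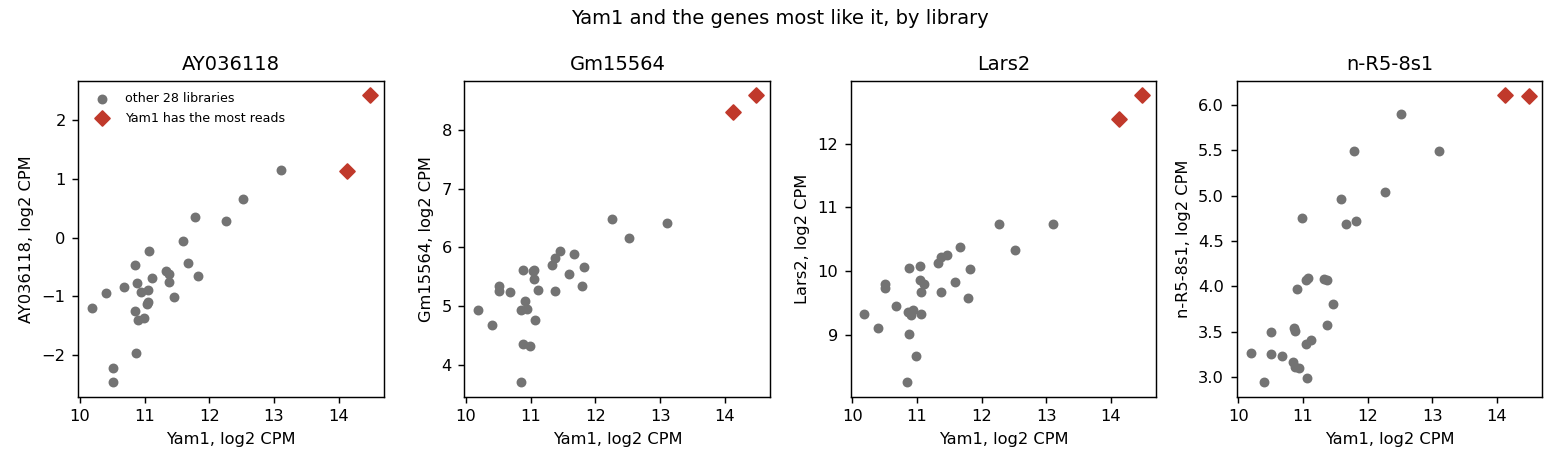
Log2 CPM of AY036118, Gm15564, Lars2 and n-R5-8s1 (vertical axes) against Yam1 (horizontal axes), 1 point per library. The diamonds mark WT anti-CD40 replicate 2 and WT IgG replicate 5, which stand at the upper right for Gm15564 and Lars2. For n-R5-8s1 they stand at 6.10 each, little above HET anti-CD40 replicate 4 (5.90), where Yam1 was lower (12.52).

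Small noncoding RNAs that RNA polymerase III makes were looked at after their values had been seen. Rn7sk, an inhibitor of the elongation factor P-TEFb, had a median of 22.5 reads in a library and 56 and 180 reads in WT anti-CD40 replicate 2 and WT IgG replicate 5. Rpph1, the RNA of RNase P, had 120 and 63 reads there against a median of 22, and Rmrp, the RNA of RNase MRP, 34 and 41 against a median of 6. These levels were not particular to the libraries that Yam1 led: HET anti-CD40 replicate 4 had 107 reads of Rn7sk, 74 of Rpph1 and 42 of Rmrp. Their correlations with Yam1 were 0.81 for Rn7sk, 0.78 for Rpph1 and 0.77 for Rmrp. The gene of YY1 itself, Yy1, had an r of -0.44 with the Yam1 row. Of the 7 YY1, PRC2 and myogenic genes that passed the filter, 0 had an r above 0.5, beside 2.25% of all genes. The most abundant of them were Mef2d, a muscle and neuron transcription factor (median log2 7.54), and Suz12, a PRC2 subunit (7.47). Myog, the muscle differentiation factor that defines the setting in which Yam1 was described, had a median log2 value of -2.24.

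Malat1 fell into a higher and a lower set of libraries that crossed the groups. In HET tumors it had 239, 369 and 288 CPM after anti-PD1, 312, 267, 103 and 108 after anti-CD40, 115, 357, 117 and 259 after the combination, and 272, 199, 361 and 258 after IgG. In WT tumors it had 277, 175, 317 and 298 CPM after anti-PD1, 238, 104 and 157 after anti-CD40, 280, 264 and 299 after the combination, and 111, 400, 340, 249 and 320 after IgG. The largest gap between neighbouring values, 0.43 log2, divided the 6 lowest libraries (log2 6.68 to 6.87) from the rest (7.30 and above). That gap was smaller than the SD of Malat1 over the 30 libraries (0.62). The low libraries were HET anti-CD40 replicates 3 and 4, HET combination replicates 1 and 3, WT anti-CD40 replicate 2 and WT IgG replicate 1. Group means ran from HET anti-PD1 (299 ± 65.6 CPM, SD, n = 3) to WT anti-CD40 (166 ± 67.7 CPM, SD, n = 3), and all 7 pairs of neighbouring groups overlapped. Those outermost groups did not overlap, by a narrow margin: the lowest HET anti-PD1 library had 238.7 CPM and the highest WT anti-CD40 library 238.1 CPM. That pair was picked by its means and differs in both host and antibody. The share of all genes that do not overlap in it is not given here.

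Kcnq1ot1 had its 7 lowest values in the 6 libraries with the lowest Malat1 and in HET IgG replicate 2. In HET tumors it had 12.1, 7.67 and 12.9 CPM after anti-PD1, 13.03, 10.8, 4.78 and 5.28 after anti-CD40, 3.40, 6.55, 4.43 and 14.6 after the combination, and 18.1, 3.94, 13.5 and 12.8 after IgG. In WT tumors it had 5.78, 14.2, 15.2 and 19.5 CPM after anti-PD1, 12.8, 3.78 and 7.11 after anti-CD40, 12.3, 13.7 and 11.2 after the combination, and 3.81, 14.8, 17.9, 14.3 and 9.10 after IgG. The lowest value belonged to HET combination replicate 1 and the highest to WT anti-PD1 replicate 4. Group means ran from WT anti-PD1 (13.7 ± 5.76 CPM, SD, n = 4) to the HET combination (7.25 ± 5.09 CPM, SD, n = 4), again with overlap in all 7 neighbouring pairs.

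Malat1 and Kcnq1ot1 rose and fell together over the libraries, and both were lower where keratinocyte markers were higher. These were among 42 relations examined: the 6 pairs of the RNAs, and each RNA with 9 composition scores, a score being the mean log2 value of a marker list in a library. For Malat1 and Kcnq1ot1 Pearson's r was 0.74 (permutation p = 3e-05, adjusted 0.00042) and Spearman's rho was 0.55 (permutation p = 0.00199, adjusted 0.0139). Within an L number r ran from 0.64 to 0.93, and it was 0.66 without the 2 libraries farthest from the Kcnq1ot1 median. Against the keratinocyte score, r was -0.81 for Malat1 and -0.86 for Kcnq1ot1, both at the smallest p that 100000 permutations can give (1e-05, adjusted 0.00021). Spearman's rho was -0.63 for Malat1 (permutation p = 0.00027, adjusted 0.00378) and -0.83 for Kcnq1ot1 (permutation p = 1e-05, adjusted 0.00042). Within an L number these correlations ran from -0.99 to -0.60 for Malat1 and from -0.97 to -0.59 for Kcnq1ot1. Without the 2 libraries farthest from the median score, r was -0.74 for Malat1 and -0.85 for Kcnq1ot1. The part of skin in these values was not tested. In a bulk sample, fewer cells of a type and less RNA per cell cannot be told apart.

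The keratinocyte markers did not lie evenly over the groups. Their 18 genes summed to 15.1 to 28.96 CPM in HET anti-PD1, 13.1 to 1363 in HET anti-CD40, 19.6 to 517 in the HET combination and 12.7 to 27.7 in HET IgG. In WT tumors they summed to 14.4 to 117 CPM in anti-PD1, 16.99 to 2804 in anti-CD40, 13.4 to 20.7 in the combination and 13.5 to 456 in IgG. The basal keratins Krt5 and Krt14 had 7497 and 23069 reads in WT anti-CD40 replicate 2, and 0 reads each in WT IgG replicates 2, 3 and 4. Skin was not the only thing that went with these RNAs. Malat1 rose with the mitochondrial score (r = 0.65, permutation p = 5e-05, adjusted 0.000525; rho = 0.71, adjusted 0.00042; 0.81 without the 2 farthest libraries, and 0.38 to 0.93 within an L number). Malat1 fell as the adipocyte score rose (r = -0.63, permutation p = 0.00037, adjusted 0.00311; rho = -0.62, adjusted 0.0041; -0.71 without the 2 farthest, and -0.84 to -0.49 within an L number). Its relation to the immune score (r = -0.54, permutation p = 0.00202, adjusted 0.0141) was not past adjustment by Spearman's rho (-0.44, adjusted 0.0691), and r was -0.38 without the 2 farthest libraries. For Kcnq1ot1 and the replicative histone score r was -0.47 (permutation p = 0.00847, adjusted 0.0445) and rho -0.42 (adjusted 0.0739), and r was -0.35 without the 2 farthest libraries.

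**Figure D4:**
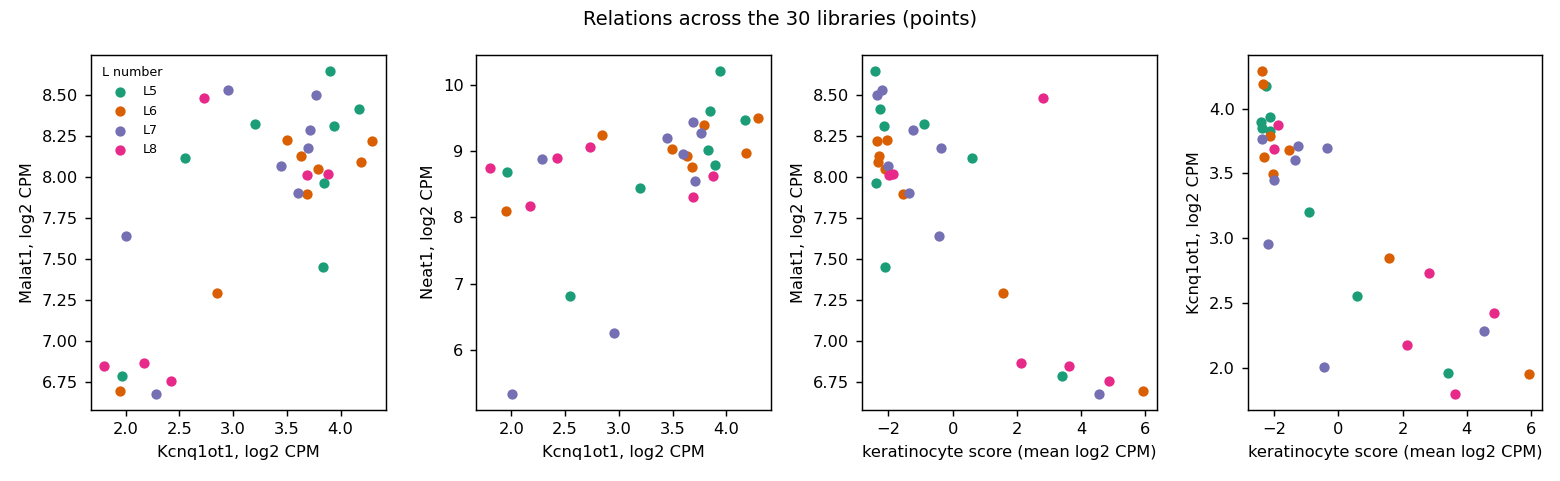
Malat1 and Neat1 against Kcnq1ot1, and Malat1 and Kcnq1ot1 against the keratinocyte score, in log2 CPM, 1 point per library, coloured by the L number of the column name. Malat1 and Kcnq1ot1 rise together (r = 0.74) and both fall as the score rises, and 3 libraries lie far below the rest for Neat1.

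The genes closest to Malat1 were Gm28941 (r = 0.91), RP24-222G3.2 (0.91), RP24-222G3.1 (0.89), B430203G13Rik (0.89) and Kmt2e (0.89), a chromatin regulator. With group means subtracted, Foxn3, a forkhead transcription factor (0.90), RP23-469D21.5 (0.88) and Cep85l, a centrosomal protein (0.88), took the place of RP24-222G3.1, B430203G13Rik and Kmt2e. The genes closest to Kcnq1ot1 were Gm21817 (0.96), RP24-151O6.1 (0.95), Nsd1 (0.94), a histone methyltransferase, Zfp369 (0.94), a zinc finger protein, and 2610037D02Rik (0.94). With group means subtracted, Zfp329, another zinc finger protein (0.95), and Rai1, a chromatin-associated protein (0.94), replaced Zfp369 and 2610037D02Rik. Many genes shared the pattern. Of 15001 genes, 472 correlated with Malat1 above 0.8 and 172 below -0.8, and for Kcnq1ot1 the numbers were 730 and 637.

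Genes of nuclear speckle proteins lay on both sides, as all genes did. Of 16, 6 had an r above 0.5 with Malat1 and 4 had one below -0.5, while 23.1% and 22.1% of all genes passed those limits. Srrm2, the scaffold of the speckle (median log2 9.61), had an r of 0.81 with Malat1, and Sf3b1, a core splicing factor (median log2 9.08), had 0.80. Snrnp70, a U1 small nuclear ribonucleoprotein, had -0.75, and U2af1, which recognises the end of introns, had -0.76, both named after their values had been seen. Of 8 neighbours of Malat1 and Neat1 on chromosome 19 that passed the filter, 1 had an r above 0.5 with Malat1, Ltbp3 (0.65). Another 2 had one below -0.5, Pola2 (-0.51) and Ehbp1l1 (-0.52), both named after their values had been seen. Around Kcnq1ot1, 12 of the 16 genes of the imprinted domain passed the filter. Of these, 0 had an r above 0.5 with Kcnq1ot1 and 2 had one below -0.5, against 24.9% and 24.01% of all genes, and they were Tssc4 (-0.80) and Nap1l4 (-0.82). The most abundant genes of the domain, Cd81, a tetraspanin, and Dhcr7, an enzyme of cholesterol synthesis, had values of -0.02 each. Kcnq1 itself had a median log2 value of 1.21 and an r of 0.04.

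Because Malat1 and Kcnq1ot1 moved together, their promoters were compared. RefSeq promoter sequences (300 bases around the start of the gene, mm10) were at hand for Malat1 and Kcnq1ot1. The motif CCAAT, read on both strands, is bound by the factor NF-Y. It occurs 3 times in the Kcnq1ot1 window (chr7:143296498-143296797, minus strand, matches in capitals) and 0 times in the Malat1 window (chr19:5802623-5802922, minus strand).
Kcnq1ot1 promoter: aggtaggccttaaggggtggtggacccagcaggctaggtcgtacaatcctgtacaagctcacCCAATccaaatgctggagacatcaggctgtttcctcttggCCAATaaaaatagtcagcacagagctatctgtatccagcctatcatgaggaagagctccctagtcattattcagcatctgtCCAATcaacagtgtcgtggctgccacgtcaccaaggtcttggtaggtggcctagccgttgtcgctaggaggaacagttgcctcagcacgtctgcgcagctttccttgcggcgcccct
Malat1 promoter: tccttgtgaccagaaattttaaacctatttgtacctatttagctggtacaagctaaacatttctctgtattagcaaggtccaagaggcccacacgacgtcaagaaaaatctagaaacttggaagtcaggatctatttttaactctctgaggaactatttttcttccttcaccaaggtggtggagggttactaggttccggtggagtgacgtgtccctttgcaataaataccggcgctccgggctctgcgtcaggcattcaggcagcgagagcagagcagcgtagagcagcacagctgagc
Of 32851 promoters of the same length, 37.4% hold at least 1 match and 3.37% hold at least 3. A match is a run of letters and not a measured binding site.

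Neat1 was far lower in 3 libraries than in the rest. In HET tumors it had 495, 76.2 and 693 CPM after anti-PD1, 374, 587, 471 and 477 after anti-CD40, 428, 536, 289 and 396 after the combination, and 505, 40.3, 624 and 319 after IgG. In WT tumors it had 112, 518, 1191 and 730 CPM after anti-PD1, 436, 275 and 605 after anti-CD40, 488, 676 and 525 after the combination, and 413, 445, 713, 780 and 348 after IgG. A gap of 1.30 on the log2 scale divided HET IgG replicate 2, HET anti-PD1 replicate 2 and WT anti-PD1 replicate 1 (log2 5.34 to 6.81) from the other 27 libraries. Group means ran from the WT combination (563 ± 99.3 CPM, SD, n = 3) to HET IgG (372 ± 254 CPM, SD, n = 4), and all 7 neighbouring pairs overlapped.

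Neat1 went with Kcnq1ot1 but not with Malat1. Its r with Kcnq1ot1 was 0.52 (permutation p = 0.00271, adjusted 0.0163) and rho was 0.59 (permutation p = 0.00094, adjusted 0.0079). Within L numbers 5, 6 and 7 r was 0.65, 0.72 and 0.69, and in the 6 libraries of L8 it was -0.17. Without HET IgG replicate 2 it was 0.44, and without the 2 libraries farthest from the Kcnq1ot1 median 0.56. Such values were common: 24.9% of all genes had an r above 0.5 with Kcnq1ot1, and 10.3% with Neat1. The r of Neat1 with Malat1 was 0.09 (permutation p = 0.66, adjusted 0.83, with a rho of 0.25). The 3 pairs with Yam1 had r between -0.20 and -0.06, and none passed adjustment. Of the 42 relations, 8 had an adjusted p under 0.05 by Pearson's r and 6 of these also by Spearman's rho.

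The genes closest to Neat1 were a transcript whose coding status the annotation leaves to be tested (r = 0.92), 2610015P09Rik (0.92), Rccd1 (0.90), a chromatin protein, 5730405O15Rik (0.90) and Kcnj2 (0.89), a potassium channel. All 5 were lowest in HET IgG replicate 2, and without that library their r was 0.83 to 0.87. With group means subtracted, Stk38, a protein kinase (0.91), replaced Kcnj2. Of 17 genes of paraspeckle proteins, 3 had an r above 0.5 with Neat1 and 1 below -0.5, beside 10.3% and 7.87% of all genes. The most abundant were Hnrnpk (r = -0.64) and Hnrnpa1 (-0.09), both RNA-binding proteins. Nono, a core paraspeckle protein named after its values had been seen, varied little between libraries (log2 8.28 to 8.93).

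In HET IgG replicate 2, Neat1 was at 40.3 CPM against 319 to 624 in its 3 group mates, a log2 difference of -3.52 from their mean, and ranked 5271 among genes. Kcnq1ot1 was at 3.94 CPM against 12.8 to 18.1 (log2 difference -1.87), and Malat1 at 199 CPM against 258 to 361 (-0.56). Yam1 was not low there, at 3528 CPM within the 1461 to 3622 of its mates. Scaled by the plain library total, these differences were -3.92 for Neat1 and -0.96 for Malat1. The same library had the lowest of the 30 values for 18 of 33 other noncoding RNAs of a list (54.5%) and for 16.0% of all genes tested. The most abundant of that list were Gm26917 (median log2 8.43) and 1700020I14Rik (7.58). The part that RNA quality or composition played in these values was not tested.

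None of the 4 RNAs was called in the comparisons that were fitted, which did not set antibody groups against each other within a host. The absence of a call does not show that levels were equal. In each of the 13 comparisons (6 of an antibody against IgG, 4 of HET against WT, and 3 of the HET response minus the WT response) 0 of 4 were called at an adjusted p under 0.05 by limma. The share of all 15002 genes called was 0% in each. At an unadjusted p under 0.05 there were between 62 and 2230 genes in a comparison and 0 of the 52 values of these RNAs, and voom on recovered reads also called 0 genes. Nor did the groups of any of the 10 direct comparisons fail to overlap for any of the 4 RNAs, for which a share of all genes did not overlap. In HET hosts that share was 1.98% for anti-PD1, 5.11% for anti-CD40 and 5.03% for the combination against IgG. In WT hosts it was 0.573%, 1.73% and 1.46% in the same order. For HET against WT it was 5.04% under anti-PD1, 3.9% under anti-CD40, 12.5% under the combination and 0.42% under IgG.

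**Figure D5:**
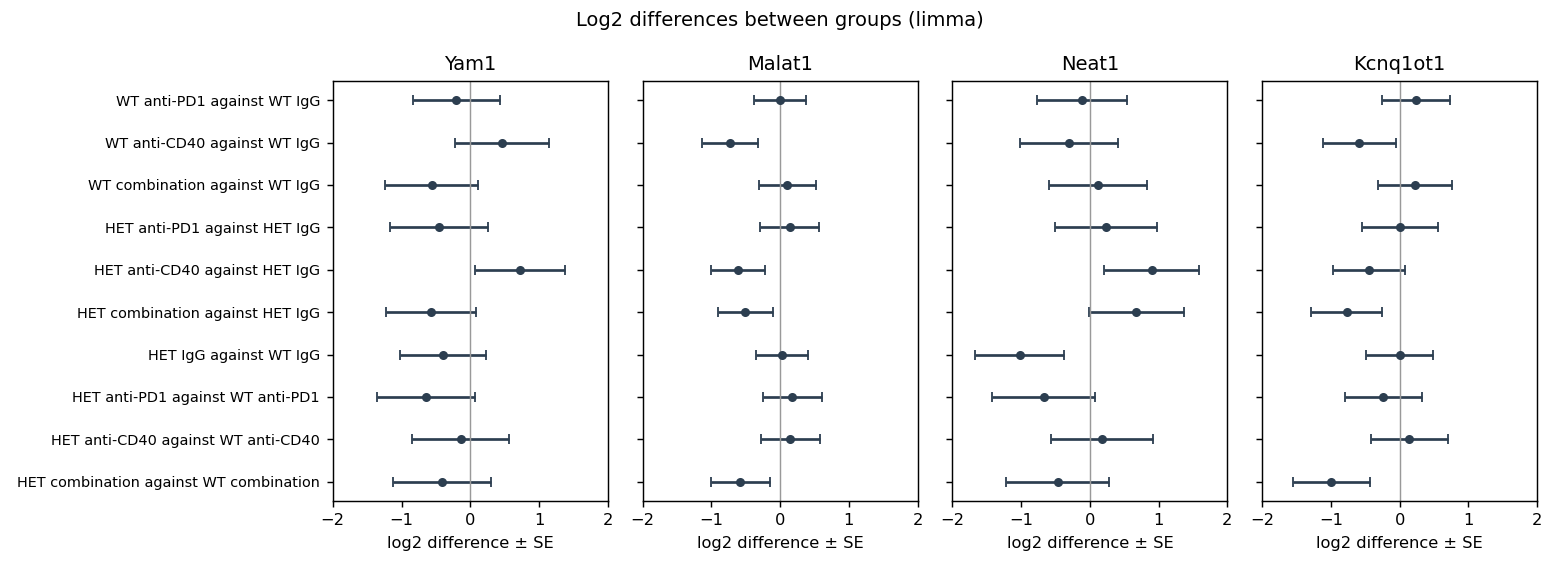
Log2 difference (point) and limma SE (bar) of each RNA in the 10 direct comparisons between groups. The values lie between -1.02 and 0.90, and no comparison was called.

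In HET hosts, anti-CD40 against IgG gave log2 differences of 0.72 ± 0.66 (SE) for Yam1, -0.61 ± 0.40 for Malat1, 0.90 ± 0.69 for Neat1 and -0.45 ± 0.52 for Kcnq1ot1 (limma adjusted p 0.45 to 0.68). The Neat1 value rested on HET IgG replicate 2 and was 0.02 without it. Within L7, which holds 3 anti-CD40 and 2 IgG libraries, the values were 0.69, -0.39, 1.56 and 0.26 in the same order. HET IgG replicate 2 is 1 of those 2 IgG libraries, so the L7 values are not free of it. With the keratinocyte and muscle scores in the model the Malat1 value was 0.066. The combination against IgG gave -0.57 ± 0.66 for Yam1, -0.51 ± 0.40 for Malat1, 0.67 ± 0.69 for Neat1 and -0.77 ± 0.52 for Kcnq1ot1 (limma adjusted p 0.63 to 0.79), and the Neat1 value was -0.21 without HET IgG replicate 2. With the keratinocyte and muscle scores in the model the Malat1 value was 0.20 and the Kcnq1ot1 value 0.22. Anti-PD1 against IgG gave -0.45 ± 0.71 for Yam1 and 0.23 ± 0.74 for Neat1. The Neat1 value was -0.65 without HET IgG replicate 2 and 1.22 without HET anti-PD1 replicate 2.

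In WT hosts, anti-CD40 against IgG gave -0.73 ± 0.41 for Malat1 (limma adjusted p 0.62), -0.59 ± 0.53 for Kcnq1ot1 and 0.47 ± 0.68 for Yam1. Leaving out either library that Yam1 led moved its value, to -0.52 for WT anti-CD40 replicate 2 and to 1.17 for WT IgG replicate 5. With the keratinocyte and muscle scores in the model the Malat1 difference was -0.19 and the Kcnq1ot1 difference 0.21. Anti-PD1 and the combination against IgG gave values between -0.56 and 0.24 for the 4 RNAs, each within its SE.

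HET against WT gave -1.02 ± 0.65 for Neat1 under IgG, which was -0.14 without HET IgG replicate 2, and -0.67 ± 0.74 under anti-PD1, which was 0.31 without HET anti-PD1 replicate 2. Under anti-CD40 the values lay between -0.14 and 0.18, and that of Yam1 was 0.84 without WT anti-CD40 replicate 2. Under the combination Kcnq1ot1 gave -0.99 ± 0.56 (limma adjusted p 0.82) and Malat1 -0.58 ± 0.43. All HET combination libraries are L8 and all WT combination libraries are L6, and with the L number in the model the Kcnq1ot1 value was 0.04. In that model the link between L6 and L8 rests on 1 library, HET IgG replicate 1, the sole HET library of L6. It cannot separate L number from group here. With the keratinocyte and muscle scores in the model the Kcnq1ot1 value was 0.10, and that of Malat1 was 0.20. The HET response minus the WT response reached 1.20 ± 0.99 for Neat1 under anti-CD40 and -0.99 ± 0.74 for Kcnq1ot1 under the combination, with limma adjusted p of 0.99 or more. The Kcnq1ot1 value was 0.12 with the L number in the model, and 0.34 once the 2 tissue scores (keratinocyte, muscle) were added instead. For the value of 0.12, WT anti-PD1 replicate 4 alone joins L5 (WT IgG) to L6 (WT combination).

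No gene of the other lists was called either. Among 33 other noncoding RNAs, HET anti-CD40 against HET IgG gave 25 positive and 8 negative log2 differences with a median of 0.37, against -0.01 over all genes. HET IgG replicate 2, which had the lowest value of 18 of these 33, is in that comparison. For HET IgG against WT IgG the same list gave 4 positive and 29 negative differences with a median of -0.29. In HET anti-CD40 against HET IgG the medians were 0.0047 over 17 paraspeckle genes, -0.01 over 16 speckle genes and 0.28 over 12 genes of the Kcnq1 domain. The 4 other genes of the ribosomal RNA list (AY036118, Gm26917, Gm15564 and Lars2) had differences of 0.50 to 1.02 there, and of 0.10 to 1.13 for WT anti-CD40 against WT IgG. In the HET combination against HET IgG they lay between -0.55 and -0.09, and in the WT combination against WT IgG between -0.51 and -0.08. These genes had r of 0.70 to 0.89 with Yam1 in the same libraries, so their differences are not independent of its own.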

How the data were processed

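The deposited values are log2 CPM made by the authors with edgeR after alignment with STAR to mm10, per the submitters' processing notes; versions are not given in the sources used here. From the values, the prior count is 2 reads and the scale is the effective library size. Whole reads were recovered for 100% of values within 0.01 reads, and the log2 values rebuilt from them differed from the deposited ones by at most 3.62e-08. Per the labels' protocols, Illumina TruSeq reagents turned total RNA into libraries. Strandedness, the counter and the annotation release are not given in the sources used here.

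The filter kept the 15002 genes that exceeded a log2 value of 0 in 3 or more libraries, and 1 mean per group was fitted to all 30 libraries with limma 3.58.1 (intensity trend) in R 4.3.3. The adjusted p is Benjamini-Hochberg over those genes. The test was checked on simulated data. Ranks, shares and CPM come from recovered reads. Correlations used two-sided permutation tests of 100000 resamples, adjusted over 42 relations. Members and gene lists were chosen with earlier results of these data known. Named are the 4 members, the 5 genes most like each, the 2 most abundant genes of each list and the neighbours of Yam1 in rank, and other names are marked as chosen after their values were seen. The values of 1 gene that this rule names are not reported here. Of 18975 identifiers, 18837 were found in GENCODE vM21, including all 4 members.

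Alternatives were voom, other scalings, filters and prior counts, covariates, library weights, the replicate block, single L numbers and leaving out each library.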

Additional observations from a re-analysis of the deposited data

Results flagged for a closer look

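Of 20 sets of values looked at for a library far from its group (the 4 RNAs in the 5 groups of 4 or 5 libraries), 1 held such a library. The log2 value of Yam1 in WT IgG replicate 5 was 14.49, while the other 4 WT IgG libraries had values of 10.85 to 11.33. That library is 1 of the 2 whose Yam1 level chose the members, so the distance is a description and carries no test. Chance gives about 1 such set in 20.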

How the results depend on the processing

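The 4 RNAs stayed uncalled in all 13 comparisons under the 43 alternatives (1060 values, lowest adjusted p 0.0586). Counts of genes called over all genes stayed at 0 in 258 of 265 cases. With library quality weights they were 1 for HET anti-PD1 against HET IgG, 47 for the HET combination against HET IgG, 2 for HET against WT under anti-CD40 and 6 under the combination. Leaving out 1 library gave 0 to 1 gene for HET anti-PD1 and for HET anti-CD40 against HET IgG and 0 to 6 for the HET combination against HET IgG, and 0 elsewhere. Pairing by replicate number was not shown, since in no comparison did every pair of same-numbered libraries correlate above 0.1. Single pairs ran from -0.79 to 0.79, and so few pairs cannot exclude pairing. The replicate block called 0 genes in all 13 comparisons. A plain library total or one without the 4 RNAs and mitochondrial genes moved the median of all genes by up to 0.13 log2. Directions of differences larger than their SE changed 11 times, and the cause was not tested. With the L number as covariate, Kcnq1ot1 was 0.044 for the HET against the WT combination, and the HET response minus the WT response to both antibodies was 0.12 for Kcnq1ot1 and 0.00 for Malat1. The value for the HET against the WT combination leans on HET IgG replicate 1, the sole HET library of L6. The response differences lean on WT anti-PD1 replicate 4, which alone joins L5 (WT IgG) to L6 (WT combination). With keratinocyte and muscle scores, Kcnq1ot1 was 0.21 (WT anti-CD40 against IgG), 0.22 (HET combination against IgG), 0.10 (HET against WT combination) and 0.34 (HET minus WT response), and Malat1 was 0.066 (HET anti-CD40 against IgG), 0.20 (HET combination against IgG), 0.20 (HET against WT combination) and 0.33 (HET minus WT response). Of the relations, Neat1 with Kcnq1ot1 was -0.17 within L8, and Malat1 with the keratinocyte score -0.99 within L6. Without the 2 farthest libraries, Malat1 with the immune score (-0.38) and Kcnq1ot1 with histones (-0.35) lost their call. Calls appeared for Yam1 with blood (0.48) and for Kcnq1ot1 with the mitochondrial (0.58), melanocyte (0.48) and adipocyte scores (-0.54). Without HET IgG replicate 2 calls appeared for Malat1 with melanocyte (0.54) and for Kcnq1ot1 with mitochondrial (0.61), melanocyte (0.52), muscle (-0.49), immune (-0.56) and adipocyte scores (-0.47). At this depth a Kcnq1ot1 value rests on 66 to 554 reads.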
